A study of Homo sapiens with 6 samples.

Results

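The MYC, MAX and MXD network is a family of transcription factors that dimerise through a basic helix-loop-helix leucine zipper. Its mRNAs were read in bulk RNA sequencing libraries of MDA-MB-231 cells, a human triple-negative breast cancer line. The members are 10 genes taken by their symbols: MYC, MAX, MXD1, MXI1, MXD3, MXD4, MNT, MGA, MLX and MLXIP. Each matched exactly 1 of the 62703 genes in the count tables, and all 10 were abundant enough to test among the 15797 genes tested. The 3 shControl libraries come from cells with a control hairpin, the 3 shRNF20 libraries from cells in which RNF20 was targeted by hairpin RNA, and the labels name no other difference. RNF20 is a ubiquitin ligase that marks histone H2B in transcribed genes, and the series asks how its knockdown changes gene expression in this line. How many hairpins were used, and whether each group is a pool or a clone, is not stated in the labels. Nor do they say whether replicates were grown separately, so a p-value here reflects the spread between these samples only, and that spread may be technical.

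MYC binds DNA as a dimer with MAX at the E-box CACGTG and raises transcription there. MAX also pairs with MXD1, MXI1, MXD3, MXD4, MNT and MGA, which compete with MYC for MAX and for the same DNA. The MXD proteins and MNT bring the SIN3-HDAC corepressor, and MGA, which also has a T-box, belongs to a Polycomb complex called PRC1.6. MLX is a second hub: it pairs with MLXIP (MondoA), which responds to glucose phosphate, and with MXD1, MXD4 and MNT. In breast cancer cells MYC is known as a driver of growth, ribosome production and nucleotide synthesis.

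RNF20 mRNA stood at 57.8, 58.5 and 58.0 CPM (counts per 1e6 counts, on TMM library sizes) in the controls, and 14.1, 12.2 and 11.1 CPM remained after knockdown, so the labels and the targeted gene went together. Libraries held 21988826 to 29685306 gene counts. Mitochondrially encoded RNA took 0.934% to 1.38% of gene counts in shControl and 4.91% to 6.22% in shRNF20, and reads outside annotated exons took 2.39% to 2.58% and 5.05% to 5.49% of all reads. VIM, CD44 and EGFR, known to be high in this line, summed to 1750.4 to 2016 CPM in shControl and 1189 to 1241 CPM in shRNF20, and all 3 were called lower, CD44 most (-1.23 on the log2 scale). Of 5 luminal or epithelial genes PGR and FOXA1 stayed under 1 CPM, GATA3 was at 9.98 and 10.4 CPM on average, CDH1 fell from 18.2 to 6.99 CPM and ESR1 rose from 0.0997 to 1.44 CPM. Leukocyte markers summed to 3.95 to 7.79 CPM in shControl and 3.89 to 4.54 CPM in shRNF20, with 5 of 7 below 1 CPM everywhere and CD3E at no more than 1 count. That sum hides opposite changes: on average LCP1 fell from 3.99 to 0.385 CPM and CD14 rose from 1.41 to 3.08 CPM. Fibroblast markers summed to 15.0 to 16.0 and 37.3 to 39.4 CPM, mostly COL1A1, and endothelial markers to 12.2 to 17.96 and 7.96 to 8.89 CPM. Among the endothelial markers PECAM1 fell from 5.12 to 0.659 CPM on average, while KDR did not pass (8.85 and 7.70 CPM). The part of these marker differences in the results was not tested. All 8 calls among the network members were also made without mitochondrial genes.

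The E-box that MYC-MAX dimers bind was looked for in the promoters of the members themselves, because a site there would put a member within reach of its own network. RefSeq windows (GRCh38.p14) from 250 bases before to 50 after each annotated start were found for 9 of the members, all but MYC, and CACGTG, which reads the same on both strands, was present for 3 of them: MXD4, MNT and MLX. Over all 35116 windows of this length 7.26% hold it, and 12.2% of the 11278 tested genes with a window have it in at least 1 window. The stretches around the 3 matches are given 5′ to 3′ on the gene's own strand, with the E-box in capitals. They lie at chr4:2262295-2262359 (minus strand), chr17:2401188-2401310 (minus strand) and chr17:42566990-42567067 (plus strand), and the match begins 238, 193 and 50 bases before the RefSeq start.
MXD4: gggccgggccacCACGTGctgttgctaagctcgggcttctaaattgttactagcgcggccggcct
MNT: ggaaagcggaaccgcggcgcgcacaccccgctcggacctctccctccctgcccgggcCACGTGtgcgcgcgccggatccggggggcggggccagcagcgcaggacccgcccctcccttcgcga
MLX: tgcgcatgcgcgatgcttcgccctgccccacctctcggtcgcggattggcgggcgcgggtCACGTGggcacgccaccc
Of these 3 genes MXD4 fell in shRNF20 and MNT and MLX did not pass the test, as the values below show. A match is a description of these letters and does not show that a factor binds there.

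Across the network 6 members fell in shRNF20, 2 rose and 2 did not pass. The members that fell were MYC, the MXD genes MXD1, MXI1, MXD3 and MXD4, and MGA. The hub MAX and the glucose-responsive factor MLXIP rose, and MNT and MLX did not pass. By edgeR's quasi-likelihood test with Benjamini-Hochberg adjustment over all genes, 58.4% of the genes tested passed, with 29.8% lower and 28.7% higher. Beside that background the 6 of 10 lower is the larger share and the 2 of 10 higher the smaller, with only 10 genes to count. The members' median log2 fold change was -0.46, against -0.01 for all genes tested, and their median size of change was 0.56, against 0.51. The shControl and shRNF20 libraries did not overlap for 8 of the 10 members, where 66.3% of all genes tested did not overlap. In a bulk sample fewer cells of a type and less RNA per cell cannot be told apart.

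**Figure D1:**
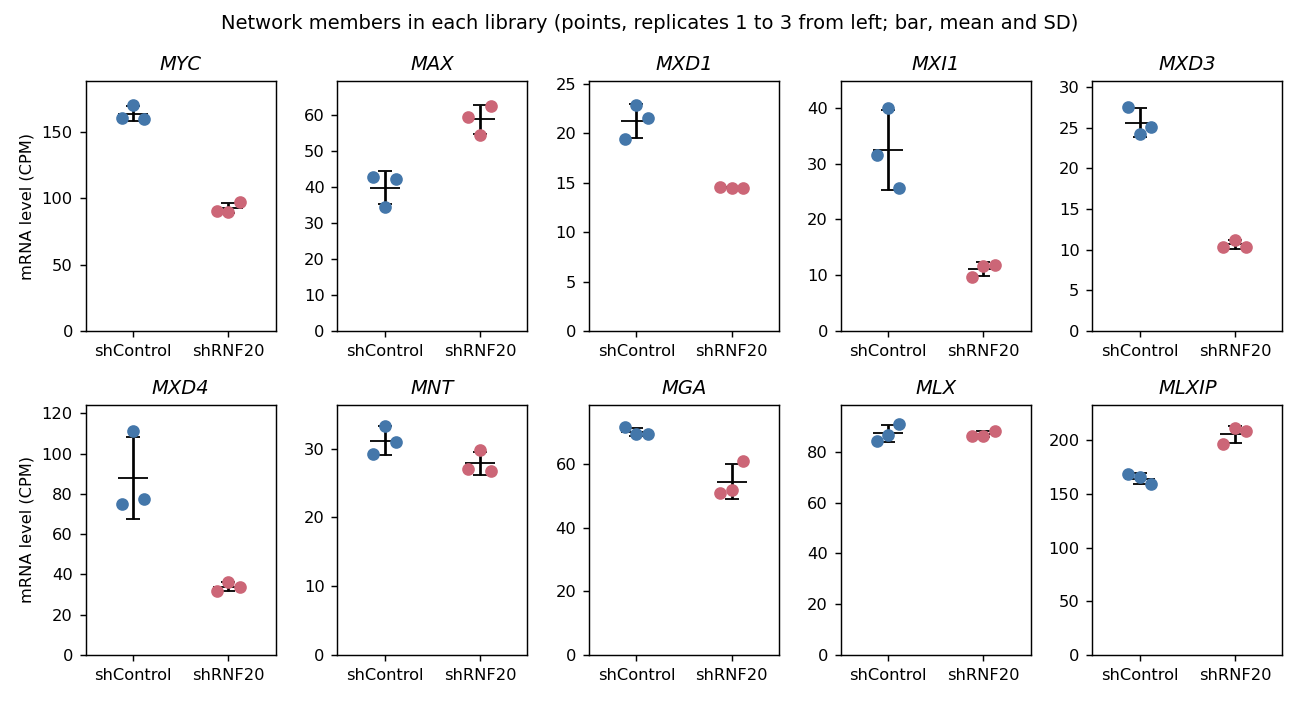
mRNA level of each network member in CPM (vertical axis, from 0) in the 3 shControl and 3 shRNF20 libraries; points are libraries in replicate order and bars give the mean and SD. The groups stand apart for 8 genes and overlap for MNT and MLX.

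MYC, the activating member, was at 161, 170.3 and 160.1 CPM in the 3 control libraries and 90.8, 90.02 and 96.9 CPM in the 3 knockdown libraries. Every control library was far above every knockdown library, and both groups were tight. The fall was 1.77-fold, from 164 ± 5.75 to 92.6 ± 3.79 CPM (SD, n = 3; by edgeR log2 fold change -0.82, SE 0.07 and adjusted p = 3.55e-05; ENSG00000136997.22, chromosome 8). No exon of MYC overlaps another gene in GENCODE 29, but its reads counted by strand exceeded those counted without strand by a factor of 1.37, so counting without strand set some of them aside as ambiguous. With the strand columns summed the log2 fold change of MYC was -0.86.

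MAX, the obligate partner of MYC, moved the other way. It was at 42.7, 34.5 and 42.1 CPM in the 3 control libraries and 59.5, 54.3 and 62.4 CPM in the 3 knockdown libraries, so the lowest knockdown library was above the highest control, and shControl replicate 2 was the lowest of all. Its rise was 1.48-fold (mean 39.8 ± 4.6 to 58.7 ± 4.09 CPM; by edgeR log2 fold change 0.56, SE 0.10 and adjusted p = 0.0019; ENSG00000125952.20, chromosome 14, 65006174 to 65102695). Reads of MAX counted by strand exceeded those counted without strand by a factor of 1.51. With the strand columns summed its log2 fold change was 0.44. Treating the shRNF20 libraries as 1 summed sample, the log2 fold change was 0.59 and no longer passed.

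The MXD genes encode repressors that are usually raised as cells leave the cycle and differentiate. MXI1 had the largest change of the network. It was at 31.6, 39.9 and 25.7 CPM in the 3 control libraries and 9.66, 11.7 and 11.9 CPM in the 3 knockdown libraries, a fall of 2.93-fold (log2 fold change -1.55, SE 0.17, edgeR adjusted p = 1.33e-04; ENSG00000119950.21, chromosome 10, 110207605 to 110287365). The control libraries were spread widely, with a coefficient of variation of 22.1%, yet the lowest of them was above every knockdown library.

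MXD4 was at 75.0, 111 and 77.5 CPM in the 3 control libraries and 31.9, 36.0 and 33.9 CPM in the 3 knockdown libraries. As for MXI1, shControl replicate 2 was the highest library, while the knockdown libraries lay close together. MXD4 fell 2.59-fold (log2 fold change -1.37, SE 0.15, edgeR adjusted p = 1.25e-04; ENSG00000123933.17, chromosome 4, 2247432 to 2262294), and its log2 fold change stayed between -1.50 and -1.19 over the 16 settings tried. Per length of exon it had the highest level of the MXD genes in both groups, and it carries the E-box shown for it above.

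MXD3, which unlike its relatives is known to be expressed in cells in S phase, was at 27.6, 24.2 and 25.1 CPM in the 3 control libraries and 10.4, 11.2 and 10.3 CPM in the 3 knockdown libraries. The groups were tight and far apart, and the fall was 2.41-fold (log2 fold change -1.27, SE 0.11, edgeR adjusted p = 3.62e-05; ENSG00000213347.11, chromosome 5, 177301461 to 177312757). This value rests on the part of the gene that no other gene covers. Of its 5154 exonic bases 40.4% also lie in exons of PRELID1, on the opposite strand, or RAB24, on the same strand. Counting without strand drops reads from those bases, while each strand column of these unstranded libraries credits MXD3 with reads that fall in PRELID1, and the summed strand columns held 23360 reads against 2827. With the strand columns the log2 fold change was 0.10 and did not pass, the only setting of 16 that turned the direction.

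MXD1, the founding MXD gene, was at 19.4, 22.8 and 21.5 CPM in shControl and between 14.48 and 14.54 CPM in all 3 shRNF20 libraries. It fell 1.47-fold (log2 fold change -0.55, SE 0.10, edgeR adjusted p = 0.00217; ENSG00000059728.11, chromosome 2, 69897688 to 69942945). Outside the strand columns, which turned MXD3, the drop was the smallest of the MXD genes, and the call was lost with the shRNF20 libraries summed to 1 sample (-0.53).

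MNT, a MAX partner that is present in most growing cells, was at 29.2, 33.3 and 30.9 CPM in the 3 control libraries and 27.0, 29.8 and 26.7 CPM in the 3 knockdown libraries. The groups overlapped and the difference did not pass (log2 fold change -0.16, SE 0.10, edgeR adjusted p = 0.175; ENSG00000070444.15, chromosome 17, 2384060 to 2401118). MGA was at 71.6, 69.3 and 69.3 CPM in the 3 control libraries and 50.9, 51.7 and 60.8 CPM in the 3 knockdown libraries, with shRNF20 replicate 3 nearest to the controls. MGA fell 1.29-fold (log2 fold change -0.36, SE 0.09, edgeR adjusted p = 0.00703; ENSG00000174197.19, chromosome 15, 41621224 to 41773081). That call was lost against a minimum change of 1.2-fold and with the shRNF20 libraries summed (-0.33).

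At the second hub, MLX was at 84.3, 86.6 and 91.0 CPM in the 3 control libraries and 86.1, 86.4 and 88.4 CPM in the 3 knockdown libraries. The knockdown libraries lay inside the range of the controls, with a log2 fold change that rounds to 0 (SE 0.07, edgeR adjusted p = 0.955; ENSG00000108788.12, chromosome 17, 42567068 to 42573239). Its partner MLXIP was at 169, 166 and 159 CPM in the 3 control libraries and 197, 211 and 209 CPM in the 3 knockdown libraries. MLXIP rose 1.25-fold without overlap (log2 fold change 0.32, SE 0.07, edgeR adjusted p = 0.00309; ENSG00000175727.14, chromosome 12, 122078722 to 122147347). The rise no longer passed against a minimum change of 1.2-fold or with the shRNF20 libraries summed (0.34).

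**Figure D2:**
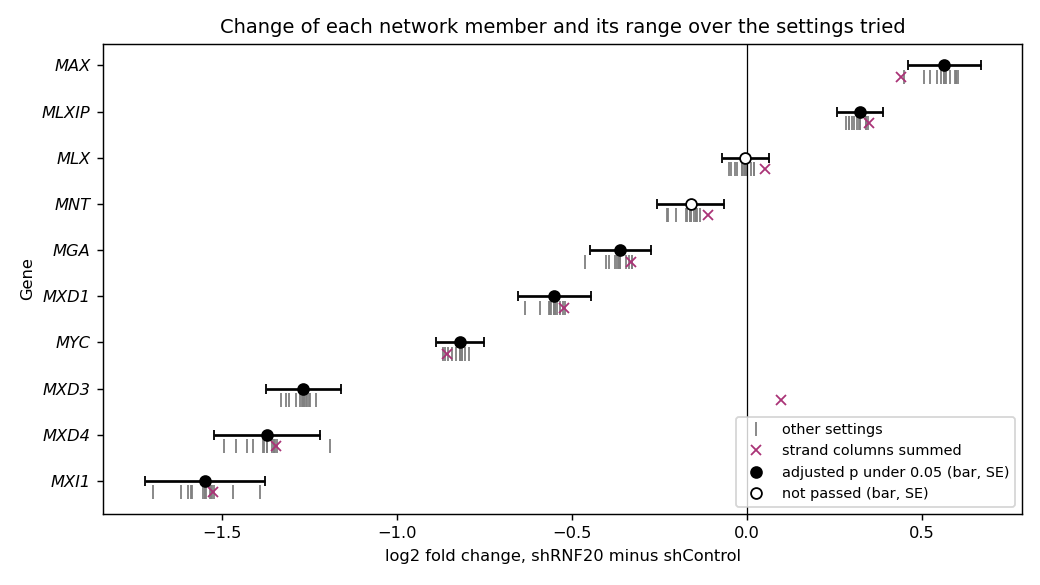
log2 fold change of each member, shRNF20 minus shControl (horizontal axis), with its SE as the bar; filled points passed and open points did not. Grey ticks under each point are the other settings and the cross is the fit on the summed strand columns, which moves MXD3 from -1.27 to 0.10 and leaves MYC at -0.86.

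Counts behind these values ran from 247 to 5944 reads per member and library. The members varied between shControl libraries by 1.95% (MGA) to 22.9% (MXD4), as coefficient of variation, and between shRNF20 libraries by 0.255% (MXD1) to 11.2% (MXI1). For 7 of the 10 the control group was the more variable, as it was for 86.1% of the 9931 tested genes whose mean log2-CPM reached 3, whose median was 10.7% in shControl and 3.94% in shRNF20. MYC, MGA and MLXIP were the members with the wider spread in shRNF20.

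Levels between genes were compared as CPM per kb of exon, a scale that allows for the length of each gene. MYC was the most abundant member in both groups, at 54.5 ± 1.92 CPM per kb in shControl and 30.8 ± 1.26 in shRNF20. MLX came next in both (20.5 ± 0.79 and 20.4 ± 0.29). In shControl the order then ran MXD4 (12.4 ± 2.86), MLXIP (11.8 ± 0.35), MAX (8.97 ± 1.04), MXI1 (7.03 ± 1.56), MXD3 (4.97 ± 0.34), MGA (3.97 ± 0.08), MNT (3.57 ± 0.24) and MXD1 (3.35 ± 0.27). Of these neighbours MXD4 and MLXIP, MAX and MXI1, and MNT and MXD1 had libraries that overlapped, so their order is not resolved.

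In shRNF20 MLXIP (14.8 ± 0.55) and MAX (13.3 ± 0.92) stood above every MXD gene, whereas MXD4 dropped to 4.81 ± 0.29 and MXD3 had the lowest value (2.07 ± 0.10), which is too low a level because reads over its shared exonic bases are not counted. MNT (3.19 ± 0.19) and MGA (3.09 ± 0.31), and MXI1 (2.40 ± 0.27) and MXD1 (2.28 ± 0.01), overlapped there. Where the longest transcript was taken as the length, MYC, MLX, MXD4, MLXIP and MAX kept their places in shControl, while MAX, MXD3 and MXI1 overlapped in turn. In shRNF20 MXD3 then stood seventh instead of last and MXD1 was the lowest. Where only the exonic bases not shared with another gene were taken as the length, 3070 for MXD3, MXD3 was at 8.34 ± 0.57 CPM per kb in shControl, overlapping MAX and MXI1, and at 3.47 ± 0.16 in shRNF20, overlapping MNT and MGA. The place of MXD3 among the lower members therefore depends on the length used.

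**Figure D3:**
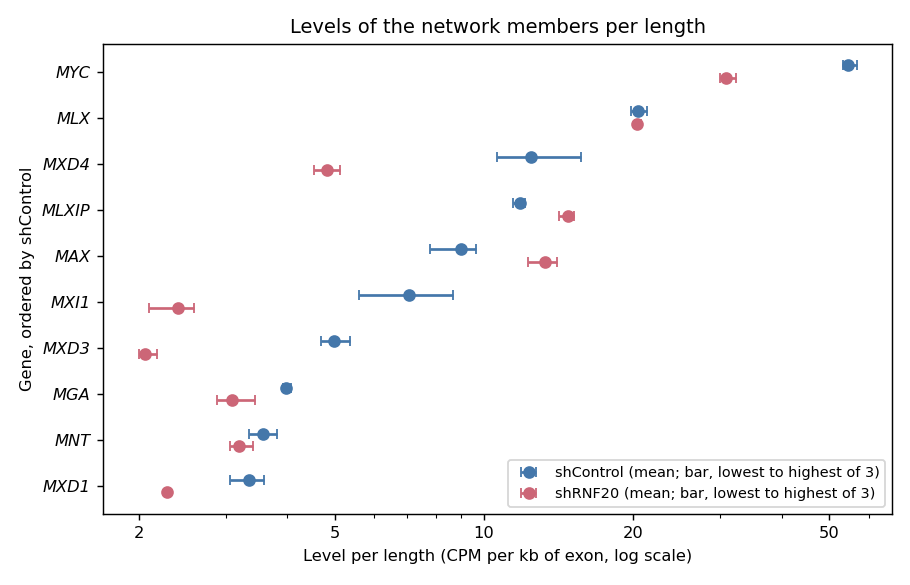
Level of each member in CPM per kb of all exonic bases on a log axis, which understates MXD3, mean of 3 libraries with bars from the lowest to the highest, ordered by shControl. MYC is highest in both groups, and MXD4 lies beside MLXIP in shControl but below MLXIP and MAX in shRNF20.

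The make-up of the transcripts whose proteins compete for MAX was set out as shares of their summed CPM per kb, as a description with no test. MYC made up 61.6%, 58.4% and 62.3% of the 7 partner mRNAs in shControl and 64.1%, 61.9% and 64.0% in shRNF20. Although MYC mRNA fell, its share overlapped between the groups, and 5 of the 6 other partners fell too. With the longest transcript as the length the MYC share was 55.2% ± 2.02 and 58.4% ± 1.41, and the groups did not overlap. With unshared exonic bases it was 57.8% ± 1.81 and 60.6% ± 1.29, with overlap. MXD4 went from 13.8% ± 2.14 to 9.88% ± 0.57, MXI1 from 7.78% ± 1.21 to 4.93% ± 0.43 and MXD3 from 5.56% ± 0.68 to 4.25% ± 0.26 (SD, n = 3). MNT went from 3.97% ± 0.15 to 6.56% ± 0.49, MGA from 4.43% ± 0.34 to 6.33% ± 0.43 and MXD1 from 3.73% ± 0.22 to 4.69% ± 0.17. For these 6 repressor genes the libraries of the groups did not overlap. The MXD3 share was 8.88% ± 1.05 and 6.82% ± 0.40 with unshared exonic bases.

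MYC mRNA per summed mRNA of the 4 MXD genes was 2.07, 1.74 and 2.15 in shControl and 2.77, 2.48 and 2.77 in shRNF20, so all 3 knockdown libraries were above the controls, as they were with unshared exonic bases (1.73 ± 0.16 and 2.34 ± 0.15). Relative to MAX the picture was the reverse. The 7 partner mRNAs together were 9.0, 12.5 and 9.02 times the MAX level in shControl and 3.51, 3.95 and 3.58 times in shRNF20, and MYC alone fell from 6.15 ± 0.99 to 2.33 ± 0.10 times MAX. MLXIP per MLX went from 0.578 ± 0.039 to 0.724 ± 0.024. These are ratios of mRNA levels, and protein was not measured. Counting without strand set aside reads over MYC, MAX, MNT and MLX too, not only over MXD3. Their strand columns held 1.37, 1.51, 1.45 and 1.42 times the reads counted without strand. The unshared length leaves MYC at 3001 bases, so it does not allow for those reads. Their effect on the levels per length, shares and ratios was not tested.

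**Figure D4:**
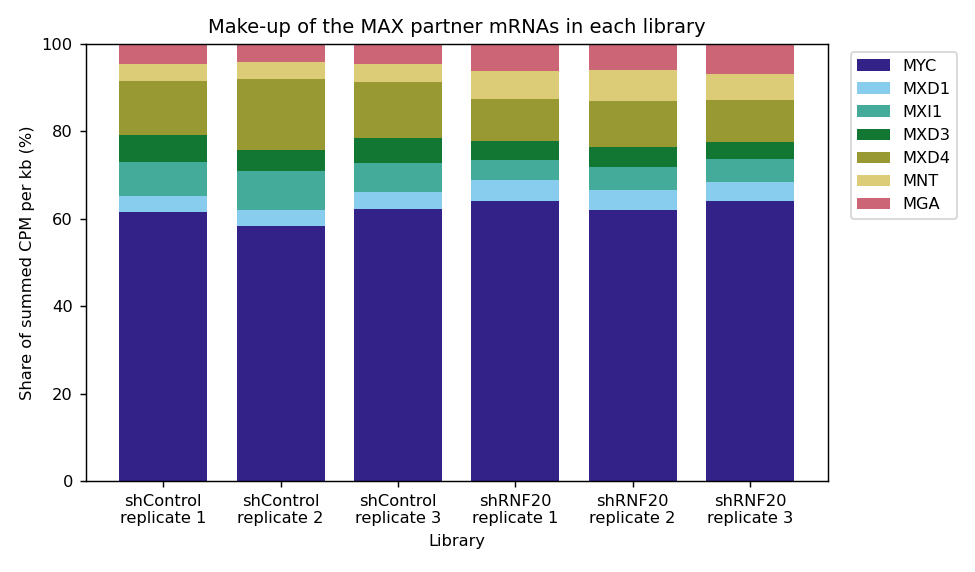
Share of each MAX partner mRNA in the summed CPM per kb of the 7 partners (vertical axis, percent), for each of the 6 libraries. MYC holds 58.4% to 64.1% throughout, while the bands of MXD4 and MXI1 are narrower and those of MNT and MGA wider in shRNF20.

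By the root mean square difference of centred log2-CPM profiles over the 6 libraries, the genes closest to MYC among 9860 compared were NDUFAF3 (0.029), GOLGB1 (0.037) and ATM (0.040). The profiles share their libraries and a large step between 2 groups, so this likeness is a description only.

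Genes that work with the network were read from 9 lists, each set beside the 29.8% lower and 28.7% higher among all genes and their median of -0.01; a number alone in parentheses after a gene is its log2 fold change, and levels are mean ± SD (n = 3). Of 12 MYC coactivators 5 fell, 3 rose and 4 did not pass, and their median log2 fold change was -0.14. KAT5, the catalytic subunit of the NuA4 acetyltransferase, rose from 8.62 ± 0.47 to 17.3 ± 0.18 CPM (log2 fold change 1.0 with SE 0.11 and, by edgeR, adjusted p = 1.25e-04). The NuA4 scaffold TRRAP (-0.63) and ATPase EP400 (147 ± 7.63 to 86.4 ± 7.94 CPM, log2 fold change -0.77 with SE 0.09 and, by edgeR, adjusted p = 1.35e-04) fell. WDR5, a chromatin docking site of MYC (log2 fold change 0.61 with SE 0.10 and, by edgeR, adjusted p = 9.48e-04), and the acetyltransferase KAT2A (0.41) rose. RUVBL1 (-0.38), ZBTB17 (-0.33) and BPTF (-0.25) fell. Of these ZBTB17 encodes MIZ1, a partner of MYC in repression, though the list counts it with the coactivators. RUVBL2 (-0.15), ACTL6A (-0.13), HCFC1 (0.11) and PAF1 (0.04) did not pass. Of the exonic bases of KAT5 38.6% overlap RNASEH2C, and its summed strand columns held 11366 reads against 1999. With the strand columns the log2 fold change of KAT5 was 0.72. The count lower was 3 without shRNF20 replicate 1 or 2, and ZBTB17 was lost in 11 of 16 settings.

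Factors that set the life span of MYC protein went both ways: of 20, 6 rose, 6 fell and 8 did not pass (median -0.04). FBXW7, the ubiquitin ligase that reads phosphorylated MYC, rose from 17.3 ± 2.32 to 38.6 ± 1.01 CPM (log2 fold change 1.15 with SE 0.11 and, by edgeR, adjusted p = 7.61e-05), and SKP2, another ligase of MYC, rose too (1.06). The ligases STUB1 (47.0 ± 1.31 to 19.9 ± 1.26 CPM, log2 fold change -1.24 with SE 0.09 and, by edgeR, adjusted p = 1.89e-05) and HUWE1 (981 ± 176 to 346 ± 47.7 CPM, log2 fold change -1.51 with SE 0.15 and, by edgeR, adjusted p = 7.08e-05) fell. USP28, a deubiquitinase that opposes FBXW7 (-0.79), and AURKA, a kinase that shields MYC proteins from FBXW7 (-0.86), also fell. STUB1 shares 42.4% of its exonic bases with JMJD8 and gave -0.86 with the strand columns.

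Of 18 genes of the SIN3-HDAC corepressor, which MXD proteins and MNT recruit, 6 fell, 2 rose and 10 did not pass (median -0.08). The scaffold SIN3A fell from 75.5 ± 3.94 to 49.5 ± 2.24 CPM (log2 fold change -0.61 with SE 0.08 and, by edgeR, adjusted p = 2.49e-04) and the chromatin reader ING1 from 21.4 ± 3.38 to 12.2 ± 0.87 CPM (log2 fold change -0.81 with SE 0.14 and, by edgeR, adjusted p = 0.00127). SAP18 (log2 fold change 0.60 with SE 0.06 and, by edgeR, adjusted p = 1.15e-04) and ARID4B (0.27) rose. The deacetylases did not pass, with values of -0.04 for HDAC1 and 0.03 for HDAC2. Without shRNF20 replicate 1 or 3 the count lower was 3, and without any 1 of the shRNF20 replicates the count higher was 1.

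The PRC1.6 complex, in which MGA and MAX sit, had 5 genes higher, 1 lower and 7 not passed of 13 (median 0.21). Its repressor E2F6 rose from 15.3 ± 2.19 to 38.8 ± 0.59 CPM (log2 fold change 1.34 with SE 0.12 and, by edgeR, adjusted p = 4.45e-05) and the histone reader L3MBTL2 from 12.3 ± 2.16 to 30.8 ± 0.57 CPM (log2 fold change 1.32 with SE 0.14 and, by edgeR, adjusted p = 9.41e-05). RYBP (0.61), WDR5 (0.61) and PCGF6 (0.50), the Polycomb ring finger of this complex, rose as well. TFDP2, a dimer partner of E2F factors, fell (log2 fold change -0.67 with SE 0.08 and, by edgeR, adjusted p = 1.49e-04), and MGA itself fell, as given above. HDAC1, HDAC2 and WDR5 also belong to other lists used here. L3MBTL2 shares 16.3% of its exonic bases with other genes, and its strand columns held 1.56 times the reads counted without strand.

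**Figure D5:**
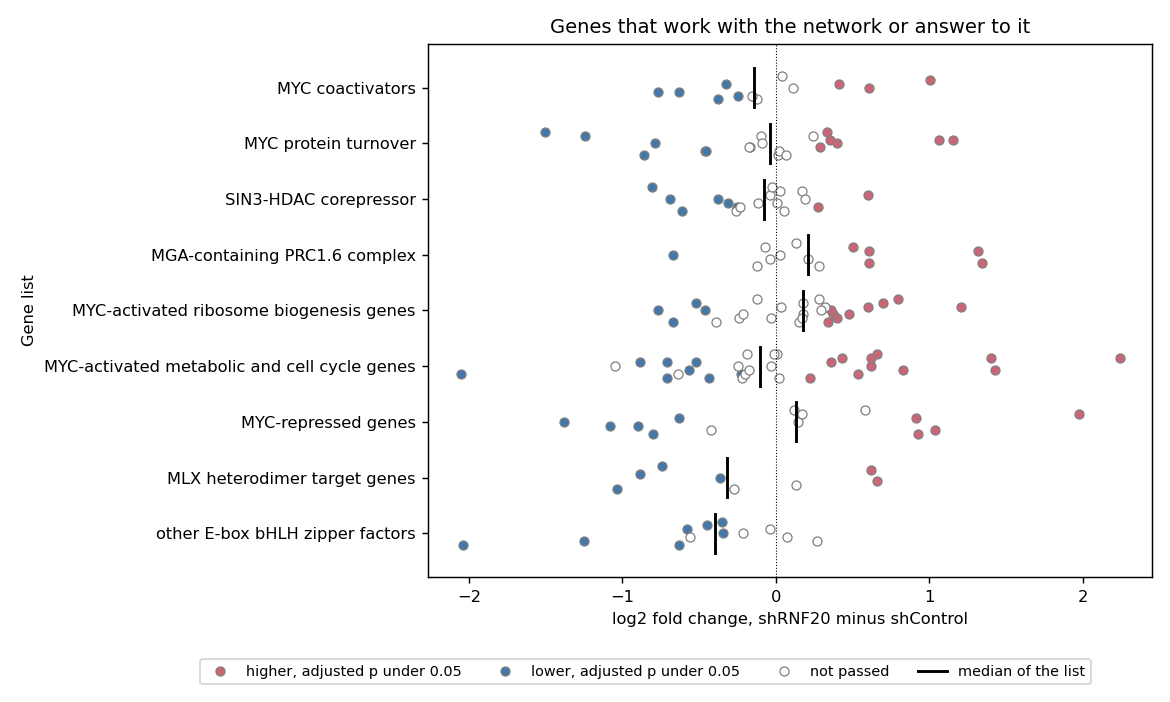
log2 fold change (horizontal axis, shRNF20 minus shControl) of every tested gene in the 9 lists, with the median of each list as a black line; colours give the call. Medians run from -0.40 (other E-box factors) to 0.21 (PRC1.6), and most lists hold genes on both sides of 0.

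Genes that MYC is known to activate did not fall as a block in shRNF20. Of 26 genes of ribosome biogenesis 9 rose, 4 fell and 13 did not pass (median 0.18). PPAN, a nucleolar assembly factor, was at 4.61 ± 0.62 and 10.7 ± 0.41 CPM (log2 fold change 1.21 with SE 0.15 and, by edgeR, adjusted p = 2.47e-04), though 59.8% of its exonic bases lie in other genes, mostly a readthrough gene, and its counts are low. WDR74 (log2 fold change 0.60 with SE 0.08 and, by edgeR, adjusted p = 4.29e-04) and the snoRNP core protein NOP56 (0.80) rose. The RNA helicase DDX21 fell from 386 ± 55.4 to 226 ± 3.87 CPM (log2 fold change -0.77 with SE 0.10 and, by edgeR, adjusted p = 3.34e-04), with TCOF1 (-0.67), FBL (-0.52) and POLR1B (-0.46). Without shControl replicate 2 the count lower was 8.

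Of 30 MYC-activated genes of metabolism and the cell cycle 11 rose, 8 fell and 11 did not pass (median -0.10). MTHFD2, the mitochondrial folate enzyme, fell from 40.5 ± 5.05 to 9.76 ± 0.37 CPM (log2 fold change -2.05 with SE 0.12 and, by edgeR, adjusted p = 9.30e-06) and the hexokinase HK2 from 128 ± 4.74 to 69.2 ± 0.63 CPM (log2 fold change -0.88 with SE 0.07 and, by edgeR, adjusted p = 2.27e-05). MTHFD2 shares 33.2% of its exonic bases with other genes, mostly SLC4A5. Its strand columns held 1.83 times the reads counted without strand. Genes of nucleotide synthesis went both ways: CAD (-0.71), GART (-0.57), PAICS (-0.52) and PRPS2 (-0.44) fell, NME1 (0.83), DHODH (0.66) and CTPS1 (0.43) rose, and PPAT did not pass (-0.01). Of the exonic bases of NME1 18.6% (638 bases) lie in the readthrough gene NME1-NME2, where reads are not counted. It had no more than 426 counts in any library. The glutamine transporter SLC1A5 fell (-0.71). SLC1A5 shares 23.8% of its exonic bases with other genes, and its strand columns held 1.70 times the reads counted without strand. IMPDH2, which acts in guanine nucleotide synthesis, rose from 1.21 ± 0.06 to 5.73 ± 0.33 CPM (log2 fold change 2.24 with SE 0.19 and, by edgeR, adjusted p = 3.76e-05), at no more than 168 counts in any library. The amino acid transporter SLC7A5 (1.40), the phosphatase CDC25A (1.43) and the transferrin receptor TFRC (0.53) rose, and ODC1, a textbook MYC target, did not pass (-0.03).

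Of the genes of these 2 MYC-activated lists that have a RefSeq window, 24 hold CACGTG, and 7 of them rose and 5 fell. Of the 21 without it 9 rose and 6 fell. Among all tested genes with a window, without 1 symbol that 2 tested genes share, 29.8% of the 1376 with the E-box rose and 28.6% fell (median 0.01), while 27.4% of the 9901 without it rose and 32.4% fell (median -0.06). These are counts over genes, which share the same 6 libraries, and the difference was not tested.

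Genes known to be repressed by MYC also moved both ways: of 14 tested from 18, 5 fell, 4 rose and 5 did not pass (median 0.13). GADD45A (124 ± 18.6 to 236 ± 15.0 CPM, log2 fold change 0.92 with SE 0.11 and, by edgeR, adjusted p = 1.86e-04), GADD45B (log2 fold change 1.04 with SE 0.13 and, by edgeR, adjusted p = 2.45e-04), the CDK inhibitor CDKN1B (0.91) and PDGFRB (1.98) rose. Cyclin G2 (CCNG2) fell from 71.1 ± 6.95 to 33.7 ± 1.62 CPM (log2 fold change -1.08 with SE 0.09 and, by edgeR, adjusted p = 4.29e-05), and CDKN1A, which encodes p21 (-1.38), KLF4 (-0.90), BTG1 (-0.80) and NDRG1 (-0.63) fell too. The groups overlapped for NDRG1, and its call was lost in 7 of 16 settings, among them without shControl replicate 1 or 2 and without any 1 of the shRNF20 replicates. BTG1 shares 17.1% of its exonic bases with other genes, and its strand columns held 1.62 times the reads counted without strand.

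For targets of MLX dimers with MLXIP or its relative MLXIPL, 8 of 10 were tested, of which 4 fell and 2 rose (median -0.32). The lipid synthesis enzyme ACACA fell from 131 ± 5.24 to 63.7 ± 2.64 CPM (log2 fold change -1.04 with SE 0.07 and, by edgeR, adjusted p = 1.66e-05), with the glycolysis regulator PFKFB3 (log2 fold change -0.74 with SE 0.09 and, by edgeR, adjusted p = 2.24e-04), HK2 and FASN (-0.37). KLF10 (0.62) and BHLHE40 (0.66) rose. The best known MondoA targets, TXNIP (-0.27, SE 0.40) and ARRDC4 (0.13, SE 0.28), did not pass, and TXNIP varied widely between the control libraries (1300.3 ± 874 CPM against 1079 ± 46.8).

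Other helix-loop-helix zipper factors that read E-boxes were lower or did not pass: of 12 tested from 13, 7 fell and 0 rose (median -0.40) with edgeR, and 0 rose at an unadjusted p under 0.05, with DESeq2 or with limma-voom. MITF, which drives lysosome and pigment genes, went from 103 ± 16.1 to 66.6 ± 0.62 CPM (log2 fold change -0.63 with SE 0.11 and, by edgeR, adjusted p = 0.00147), TFEB from 5.44 ± 2.52 to 1.32 ± 0.38 CPM (log2 fold change -2.04 with SE 0.38 and, by edgeR, adjusted p = 0.00194) and USF3 fell too (log2 fold change -0.58 with SE 0.11 and, by edgeR, adjusted p = 0.00214). USF2 (-0.35), TFE3 (-0.35) and TFAP4 (-0.45) fell. MLXIPL, which encodes ChREBP, was low and fell from 5.13 ± 1.57 to 2.16 ± 0.23 CPM (-1.25), at no more than 171 counts in any library. Of the MYC paralogs, MYCN had no more than 2 counts in any library and MYCL was low and did not pass (1.43 ± 0.55 and 0.964 ± 0.417 CPM). With the shRNF20 libraries summed to 1 sample 0 of the 7 passed, and 4 were lower at an unadjusted p under 0.05.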

How the data were processed

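The authors deposited raw read counts per gene for each library, without strand and for each strand. Per the submitters' processing notes, FastQC 0.12.1 and STAR 2.7.11a were used with hg38. The annotation release is not given in the sources used here. Counts without strand were used, which set aside as ambiguous any read that touches several genes (10.7% to 11.2% of all reads). Lines that name no gene (20.9% to 24.1% of reads) were left out.

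The edgeR package (4.0.16, under R 4.3.3) filtered the genes (filterByExpr, minimum count 10), applied TMM scaling and ran its robust quasi-likelihood F-test on all 15797 that remained, with a threshold of 0.05 after Benjamini-Hochberg adjustment. SE is the log2 fold change divided by the root of F. Exonic lengths, overlaps and positions came from GENCODE 29 (GRCh38), which may not be the authors' release, and promoter windows from RefSeq (GRCh38.p14).

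The members and lists were chosen with earlier results of these data known. Named genes are all members, RNF20, the 3 genes most like MYC, the 3 smallest p of each list and every gene of a direction taken by 5 or fewer. Other list genes with a value were chosen after their values were seen.

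Alternatives were RLE scaling, DESeq2 1.42.0, limma-voom (limma 3.58.1), no filter, a stricter filter (1 CPM in 3 libraries), a replicate block, summed strand columns, no mitochondrial genes, the shRNF20 libraries summed to 1 sample, leaving out each library, and a minimum change of 1.2-fold. The length of exonic bases not shared with another gene was added after seeing the data. The fit was also run on simulated counts drawn with the same dispersion in both groups. The groups here differ in spread, so that run does not test the fit under such a difference.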

Additional observations from a re-analysis of the deposited data

How the results depend on the processing

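Of the members, MYC, MXI1 and MXD4 passed in all 16 settings with log2 fold changes of -0.87 to -0.79, -1.70 to -1.39 and -1.50 to -1.19, and no member's call was lost by leaving out a library. MXD3 turned to 0.10 with the summed strand columns, where reads of its overlapping neighbour are credited to it. MLX, which never passed, turned positive with the stricter filter (0.012), summed strand columns (0.051), the shRNF20 libraries summed (0.020) and without shControl replicate 3 (0.019), and leaving out 1 library moved it from -0.051 to 0.019. Treating the shRNF20 libraries as 1 sample left 0 members higher (2 at an unadjusted p under 0.05), 1 MYC coactivator lower, 2 turnover factors higher, 1 SIN3-HDAC gene higher and 1 lower, 3 ribosome biogenesis genes higher and 1 lower, 4 metabolic genes higher and 3 lower, 1 MLX target higher and 0 other E-box factors lower (4 at an unadjusted p under 0.05). Over all genes it left 1753 higher and 1619 lower, against 4528 and 4704. The test against 1.2-fold left 1 member higher, 2 coactivators lower, 3 turnover factors higher, 1 SIN3-HDAC gene higher and 3 lower, 5 ribosome biogenesis genes higher and 4 other E-box factors lower. Without a filter on low counts 1 SIN3-HDAC gene was higher. Leaving out 1 library gave 3 to 7 coactivators lower, 1 to 3 SIN3-HDAC genes higher and 3 to 6 lower, and 4 to 8 ribosome biogenesis genes lower. With replicate number as a block 6 members were lower and 2 higher, as without it, and 12 ribosome biogenesis genes were higher. Same-numbered libraries of the 2 groups deviated together by correlations of -0.016, 0.035 and 0.028. With 3 libraries a group, and shRNF20 libraries that differ little, these values cannot decide whether the numbers pair the libraries.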
